A study of Homo sapiens with 16 samples.

Results

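S100 proteins are small calcium sensors built around EF-hand loops and mostly act as dimers. Inside the cell they bind annexins, myosin or cytoskeletal linkers once calcium is bound, and several are released and act on surface receptors. In airway epithelium the S100A8 and S100A9 proteins together form calprotectin, an antimicrobial complex that withholds metals from microbes, while other members mark basal, squamous or motile cells. Most of the genes lie together on chromosome 1, beside the genes of the epidermal differentiation complex. The 10 members described here are S100A2, S100A4, S100A6, S100A8, S100A9, S100A10, S100A11, S100A14, S100A16 and S100P. They were chosen by name, as all probes without a control mark whose gene name on the array equals one of these symbols, and are 10 of 42665 gene names. They have 11 probes of 58201, and the 11 were well above background on each of the 16 arrays. No value was left out or imputed for them.

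The cells were 16HBE, a nontumorigenic human bronchial epithelial line immortalised with SV40 large T antigen, so all groups share that antigen. 16HBE-WT cells carry unedited MET, the receptor tyrosine kinase of hepatocyte growth factor (HGF). 16HBE-ex14 cells are clone F, 1 clone made with CRISPR/Cas9 in which exon 14 of MET is skipped, so clone and genotype cannot be told apart. Cells of all groups were serum-starved for 2 h. Each was then cultured for 24 h without HGF or with HGF at 20 ng/mL. The groups with HGF are named 16HBE-WT+HGF and 16HBE-ex14+HGF, and each of the 4 groups has 4 arrays, from cultures set up at weekly intervals. The sources used here do not tie an array to a week. The titles of all 4 16HBE-WT+HGF samples read YY where WT would stand, whereas their genotype field and description give WT, which was followed; every comparison with that group rests on it.

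Every level below is the log2 signal of a probe relative to the 75th percentile of its own array, so 0 is that percentile and a step of 1 doubles the signal. Levels of different S100 probes were not set against each other, since probes differ in how brightly they hybridise. Sums over marker probes, given below, are read between groups within a list. A gene was called when limma, fitted over all 16 arrays, gave an adjusted p below 0.05 and a fold change above 1.5, which is 0.58 on the log2 scale. S100A11 has 2 probes and is represented by the one with the higher mean signal. The 75th percentile itself lay between 139.5 and 213 intensity units on the 16HBE-WT and 16HBE-WT+HGF arrays and between 201.8 and 262.8 on the arrays of the clone. The 6 epithelial markers (EPCAM, CDH1, KRT8, KRT18, KRT19 and KRT5) were above background on all arrays. One of them, KRT5, a basal cell keratin, was lower in the clone without HGF (log2 difference -2.57, adjusted p = 6.22e-07) and with it (-4.25, adjusted p = 3.38e-09). In the clone KRT5 fell with HGF (log2 difference -2.31, adjusted p = 0.000148). The MET probe was not placed relative to the skipped exon here, so its level does not check the edit. MET was not called in any comparison.

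The coding sequence under some probes shows what the family shares. In the lines that follow, read by the array's own probes, the capitals are the 36 bases of the 12 codons of a calcium-binding EF-hand loop. The first lies in S100A11 at chr1:152005219-152005278 and the second in S100A12 at chr1:153346346-153346405, both on the minus strand of hg19.
S100A11: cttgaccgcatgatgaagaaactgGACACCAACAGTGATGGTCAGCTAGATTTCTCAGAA
S100A12: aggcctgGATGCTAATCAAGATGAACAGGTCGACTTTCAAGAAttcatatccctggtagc
Both loops open with GA, the start of an aspartate codon, and close with GAA, the glutamate that holds the calcium ion. This S100A11 probe is the dimmer of its pair, and the other 10 member probes hold no complete loop.

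The probes of the calprotectin genes are shown because these genes gave the largest genotype difference and the one call for HGF. The S100A8 probe, at chr1:153362548-153362607 on the minus strand of hg19, crosses the end of the coding sequence, and its stretch up to the stop codon, in capitals, is shown. The S100A9 probe, which starts and ends at chr1:153330874-153333143 on the plus strand, covers 60 bases of message spread over 2270 bases of genome, so it crosses a splice junction and reads spliced RNA.
S100A8: aaagccatgaagaaagccacaaagagTAG
S100A9: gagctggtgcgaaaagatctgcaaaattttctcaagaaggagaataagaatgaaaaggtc
The S100A4 probe, at chr1:153516198-153516257 on the minus strand, also crosses a stop codon.
S100A4: ataagcagcccaggaagaaaTGA

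S100A8, the smaller calprotectin subunit, differed most between the genotypes. The 4 arrays of 16HBE-WT read 0.33, -0.23, -0.12 and -0.55, and those of 16HBE-WT+HGF read -0.90, -0.30, -0.22 and -0.67. In the clone the levels were -2.56, -2.06, -2.67 and -2.34 without HGF and -3.01, -3.00, -2.53 and -3.19 with HGF. No array of the clone reached the lowest array of the unedited cells in either condition. Without HGF, S100A8 was 4.80-fold lower in 16HBE-ex14 than in 16HBE-WT (log2 difference -2.26, SE 0.21, adjusted p = 7.24e-06). With HGF it was 5.31-fold lower (log2 difference -2.41, SE 0.21, adjusted p = 3.46e-06). HGF itself did not move it past the test in either genotype, with differences of -0.38 (adjusted p = 1) and -0.53 (adjusted p = 0.254). Its spots were dim, at 23.9 to 57.0 intensity units in the clone and 99.99 to 207.4 in the unedited cells. The size was smaller under another background correction, which was run with a single offset, so the parts of correction and offset were not separated. Normexp correction was run with an added 50 intensity units, an offset that narrows log2 differences of dim spots. It gave -1.34 without HGF and -1.25 with HGF, and the gene was still called. The arrays read RNA of the whole culture, so fewer cells with S100A8 and less S100A8 RNA per cell cannot be told apart.

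S100A9, the partner subunit, was not called between the genotypes. The log2 difference was -0.12 without HGF (adjusted p = 0.564) and 0.34 with HGF (95% CI 0.08 to 0.60, adjusted p = 0.0599). Under the alternatives the difference with HGF was 0.28 to 0.43 (adjusted p = 0.00269 to 0.161), under the fold limit. It read 3.53, 3.45, 3.39 and 3.54 in 16HBE-WT and 3.62, 3.72, 3.73 and 3.40 in 16HBE-WT+HGF. The clone read 3.28, 3.25, 3.46 and 3.45 without HGF and 3.84, 3.73, 4.30 and 3.96 with HGF. Every array of the clone with HGF lay above every array of the clone without it, whereas the arrays of 16HBE-WT and 16HBE-WT+HGF overlapped. S100A9 rose 1.51-fold with HGF in 16HBE-ex14 (log2 difference 0.60, SE 0.12, adjusted p = 0.0151), just past the fold limit. In 16HBE-WT the difference was 0.14 (SE 0.12, adjusted p = 1). The difference between the responses was 0.46 (95% CI 0.10 to 0.83) with an adjusted p of 0.946, so S100A9 was not shown to respond differently in the genotypes. The call was lost under scaling to the array median (0.44, adjusted p = 0.172), to the spike-in probes (0.52, adjusted p = 0.0705), or when only the compared groups entered the fit (adjusted p = 0.1). Leaving out replicate 1 of 16HBE-ex14 (0.57), replicate 2 of that group (0.56, adjusted p = 0.0603) or replicate 3 of 16HBE-ex14+HGF (0.48) ended it too.

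**Figure D1:**
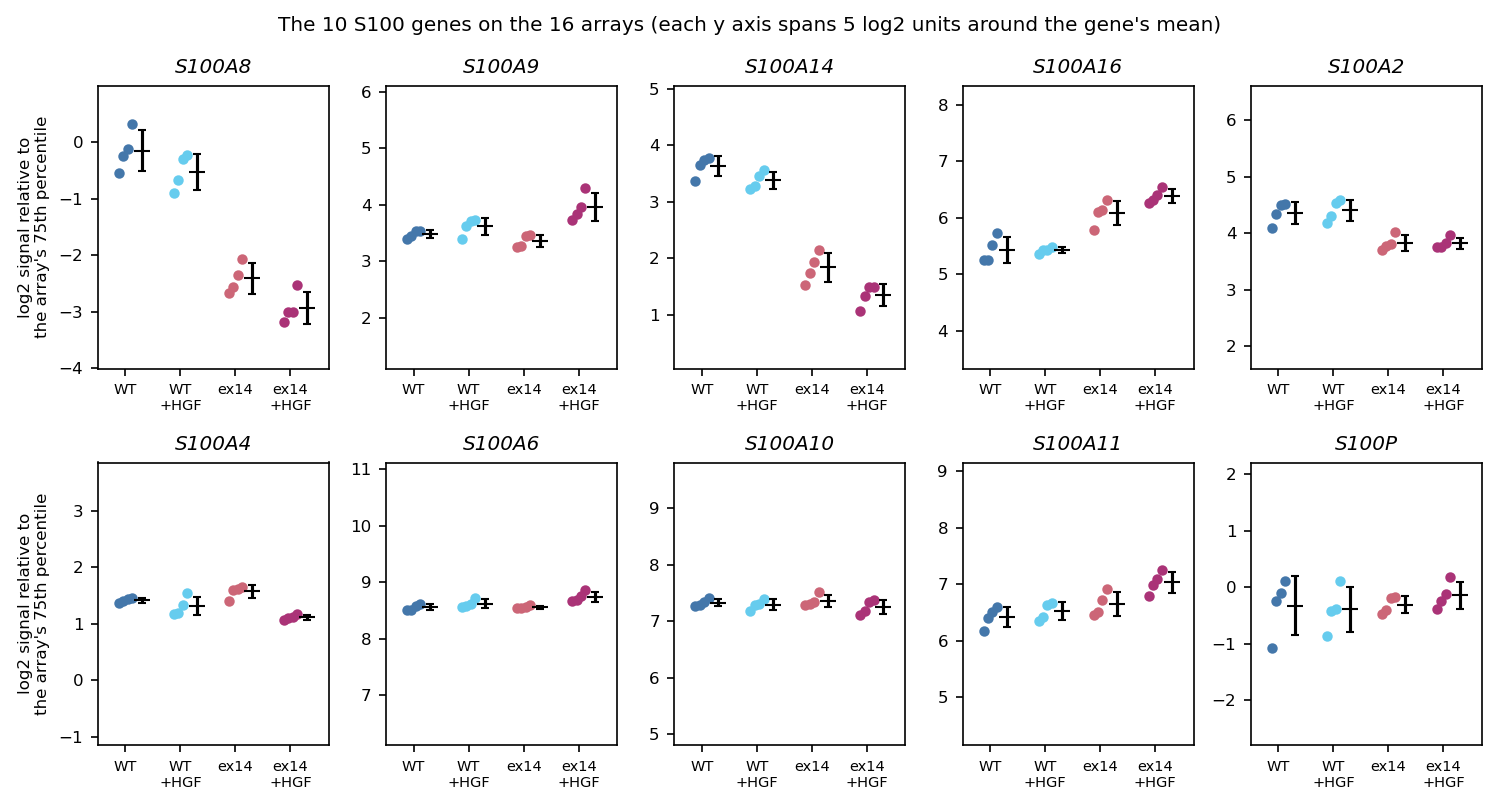
Levels of the 10 S100 genes on each array. The y axes give log2 signal relative to the array's 75th percentile, the x axes the 4 groups; points are arrays, sorted by value within a group, and the bars beside them are the mean with its SD (n = 4). S100A8 and S100A14 sit lower in both groups of the clone, S100A16 higher, and S100A9 is highest in 16HBE-ex14+HGF.

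S100A14, a membrane-associated member of epithelial cells, was lower in the clone like S100A8. It read 3.73, 3.65, 3.37 and 3.76 in 16HBE-WT and 3.27, 3.56, 3.45 and 3.23 in 16HBE-WT+HGF. In 16HBE-ex14 the levels were 1.75, 2.14, 1.53 and 1.93, and in 16HBE-ex14+HGF they were 1.49, 1.07, 1.49 and 1.32. The groups of the genotypes were more than 1 log2 unit apart at their nearest arrays. S100A14 was 3.47-fold lower without HGF (log2 difference -1.79, SE 0.14, adjusted p = 1.82e-06) and 4.10-fold lower with HGF (log2 difference -2.03, SE 0.14, adjusted p = 5.19e-07). With HGF the clone's arrays all lay below those without HGF, yet the difference of -0.49 did not pass (adjusted p = 0.0926). Without 16HBE-ex14 replicate 3 that difference was -0.60 and was called (adjusted p = 0.0321).

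S100A16, an EF-hand protein whose gene is the neighbour of S100A14, went the other way. Its arrays read 5.24, 5.25, 5.51 and 5.72 in 16HBE-WT and 5.36, 5.42, 5.49 and 5.43 in 16HBE-WT+HGF. The clone read 5.79, 6.11, 6.31 and 6.14 without HGF and 6.26, 6.31, 6.54 and 6.39 with HGF. All arrays of the clone were above all arrays of the unedited cells, although the lowest, at 5.79, exceeded the highest 16HBE-WT array by less than 0.1. S100A16 was 1.58-fold higher without HGF (log2 difference 0.66, SE 0.13, adjusted p = 0.0023) and 1.94-fold higher with HGF (log2 difference 0.95, SE 0.13, adjusted p = 0.000116). Its level also differed between the 2 slides by 0.22 (adjusted p = 0.0273); within each slide the genotype difference was 0.70 and 0.61 without HGF and 0.90 and 1.01 with HGF. The call without HGF fell under the fold limit with quantile normalization (0.56) and without 16HBE-ex14 replicate 3 (0.58).

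S100A2, which is typical of basal epithelial cells, was lower in the clone by a smaller step. It read 4.10, 4.53, 4.50 and 4.35 in 16HBE-WT and 4.30, 4.19, 4.59 and 4.55 in 16HBE-WT+HGF. The clone read 3.77, 4.03, 3.82 and 3.71 without HGF and 3.97, 3.76, 3.83 and 3.76 with HGF, all below the unedited arrays. The log2 difference was -0.54 without HGF (SE 0.12, adjusted p = 0.00607) and -0.58 with HGF (SE 0.12, adjusted p = 0.00319). Both passed the adjusted p but not the fold limit, so S100A2 was not called. With quantile normalization the differences were -0.60 and -0.65, past the limit. So they were without HGF on leaving out 16HBE-WT replicate 1 (-0.625) or 16HBE-ex14 replicate 2 (-0.60), and with HGF on leaving out replicate 1 (-0.61) or 2 (-0.65) of 16HBE-WT+HGF or replicate 1 of 16HBE-ex14+HGF (-0.63).

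S100A4, a myosin-binding member linked to cell motility, differed with HGF only below the fold limit. It read 1.66, 1.62, 1.41 and 1.60 in 16HBE-ex14 and 1.13, 1.07, 1.10 and 1.17 in 16HBE-ex14+HGF, without overlap. The unedited cells read 1.36, 1.45, 1.46 and 1.40 without HGF and 1.18, 1.20, 1.54 and 1.33 with HGF. In the clone the difference with HGF was -0.46 (SE 0.09, adjusted p = 0.0141), a 1.37-fold lower signal, and in 16HBE-WT it was -0.10 (adjusted p = 1). The difference of the responses was -0.35 (95% CI -0.62 to -0.08, adjusted p = 0.935). Scaling to the array median brought the difference in the clone to -0.62 and past the limit.

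Of the annexin-binding members, S100A10 and S100A6 had the narrowest ranges of group means among the 10, 0.11 and 0.19, whereas that of S100A11, 0.61, was wider than that of S100A9, 0.60. S100A10, which has lost calcium binding and joins annexin A2 in a tetramer, kept all 16 arrays between 7.11 and 7.51. S100A6, a partner of CACYBP, kept its arrays between 8.51 and 8.87; those of 16HBE-ex14+HGF, from 8.66 up, lay just above those of 16HBE-ex14, but the difference of 0.18 was not called. S100A11, an annexin A1 partner, read on its brighter probe 6.43, 6.34, 6.67 and 6.63 in 16HBE-WT+HGF and 6.79, 6.99, 7.25 and 7.10 in 16HBE-ex14+HGF. With HGF present it was higher in the clone by 0.51 (SE 0.13, adjusted p = 0.0138), under the fold limit, and its other probe gave 0.47 (adjusted p = 0.00163). Without HGF the brighter probe gave 0.23 (adjusted p = 0.281) and the other 0.31 (adjusted p = 0.0223), the latter without overlap of the arrays. For HGF in the clone they gave 0.38 (adjusted p = 0.176) and 0.30 (adjusted p = 0.0971), again without overlap on the dimmer probe. Between the genotypes with HGF, S100A11 was called under normexp correction (0.59) and scaling to the array median (0.60). The brighter probe differed between slides by 0.29 (adjusted p = 0.00252) and the other by -0.01. Within the slides the difference of the brighter probe from 16HBE-WT+HGF was 0.50 and 0.52.

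S100P, which binds ezrin and IQGAP1 and is the only member on chromosome 4, had the largest SE of the 10 members, 0.24, and was called nowhere. Its SD was 0.52 in 16HBE-WT, where 1 array read -1.08 and the others -0.25 to 0.11. Its genotype difference was 0.02 without HGF (95% CI -0.49 to 0.54) and 0.25 with HGF (95% CI -0.26 to 0.76), so a difference past the fold limit lies within the second interval.

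Counted over the family, 0 of the 10 members were called for HGF in 16HBE-WT, where 0% of the 34599 tested probes were called and 1681 had an unadjusted p below 0.05. None had arrays without overlap there, beside 2.59% of probes. For HGF in 16HBE-ex14, 1 of 10 was called, S100A9, beside 1.99% of all tested probes (1.05% higher, 0.936% lower), and 2 of 10, with S100A4, passed the adjusted p without the fold limit, beside 2.85%. In 16HBE-ex14 against 16HBE-WT, 3 of 10 were called without HGF, beside 9.43% of all tested probes, and 3 of 10 with HGF, beside 10.8%. They were S100A16, higher, and S100A8 and S100A14, lower, in both conditions. The 1 higher and 2 lower members stood beside 4.5% and 4.93% of probes without HGF, and beside 5.38% and 5.43% with HGF. Without the fold limit 4 of 10 passed in the absence of HGF (18.3% of probes) and 5 of 10 in its presence (20.5%), with S100A2 added in both and S100A11 in the latter. No member was called for the difference of the HGF responses, as 0% of probes were, with 1586 at an unadjusted p below 0.05. Groups without overlapping arrays were seen for 4 of 10 members with HGF in 16HBE-ex14 (8.87% of probes), 4 of 10 between genotypes without HGF (21.3%) and 6 of 10 with HGF (23.9%). The median member difference was -0.02 for HGF in 16HBE-WT, 0.08 for HGF in 16HBE-ex14, 0.01 between the genotypes without HGF and 0.04 with it, against medians over all tested probes of 0.03, 0.06, -0.02 and 0.00. These comparisons share groups, so their values are given side by side and not correlated.

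**Figure D2:**
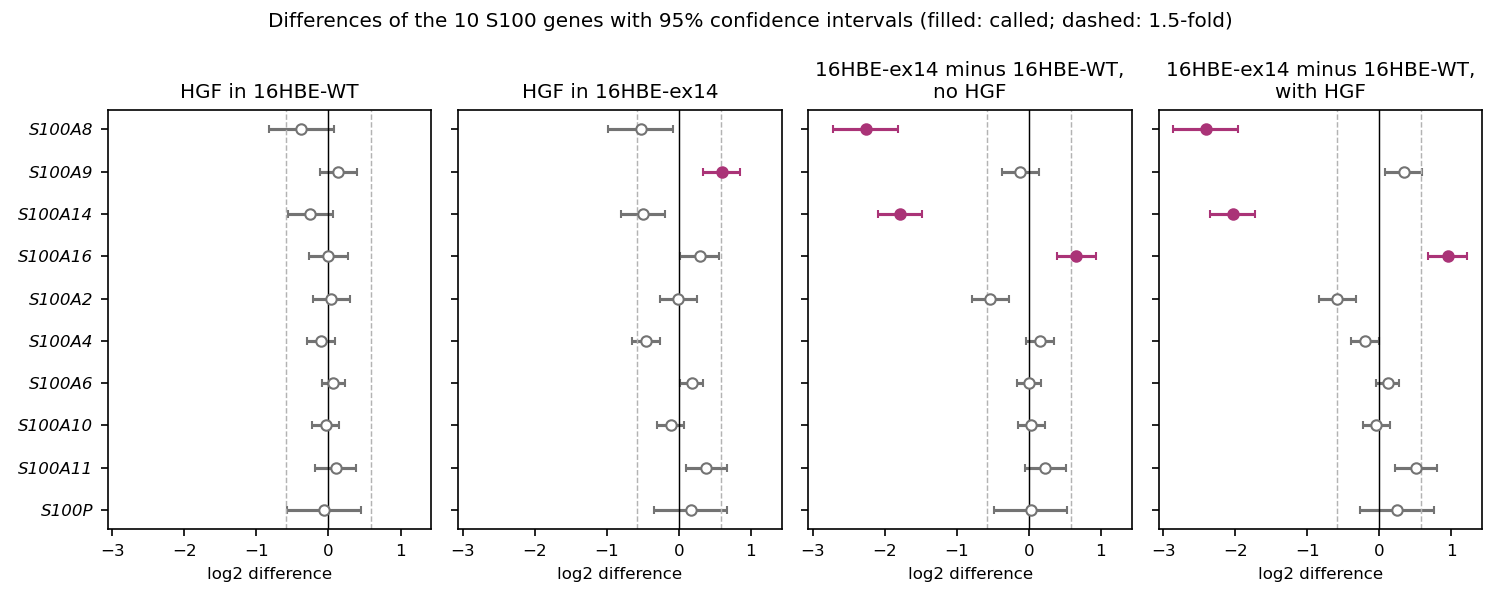
Log2 differences of the 10 S100 genes in 4 comparisons, with 95% confidence intervals from limma (4 arrays a group). Filled points were called and dashed lines mark 1.5-fold; S100A8 and S100A14 lie near -2 and S100A16 above 0 between the genotypes, and S100A9 is the filled point for HGF in 16HBE-ex14.

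Neighbours on the chromosome did not all move one way. All members but S100P lie on chromosome 1 of hg19 between 151955420 and 153587065, a stretch of 1632 kb. S100A9, S100A12 and S100A8 follow each other there, and so do S100A2, S100A16 and S100A14. Within the second run, S100A2 and S100A14 had lower and S100A16 higher levels in the clone, with differences of -0.54, -1.79 and 0.66 without HGF. Among the first run, S100A9 and S100A8 differed between the genotypes by -0.12 and -2.26. S100A12, another calgranulin, lies between them and belonged to a list of 11 other S100 genes.

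For S100A12 the low arrays were those of the clone with HGF. It read -3.26, -2.60, -3.45 and -2.76 in 16HBE-ex14 and -4.43, -4.17, -4.25 and -4.17 in 16HBE-ex14+HGF, without overlap. The unedited cells read -2.61, -3.29, -2.25 and -2.23 without HGF and -2.71, -2.67, -2.82 and -2.73 with HGF. It fell with HGF in the clone (log2 difference -1.24, SE 0.22, adjusted p = 0.00774), and so did its other probe, which holds the loop shown above (-0.97, adjusted p = 0.0283). Between the genotypes it was lower with HGF (log2 difference -1.52, adjusted p = 0.000234), while the difference of -0.42 without HGF was not called. Its spots were dim, at 10.95 to 44.4 intensity units. With normexp correction, whose offset narrows differences of such dim spots, neither difference was called. They were -0.30 for HGF in the clone (adjusted p = 0.112) and -0.58 between the genotypes, under the fold limit.

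**Figure D3:**
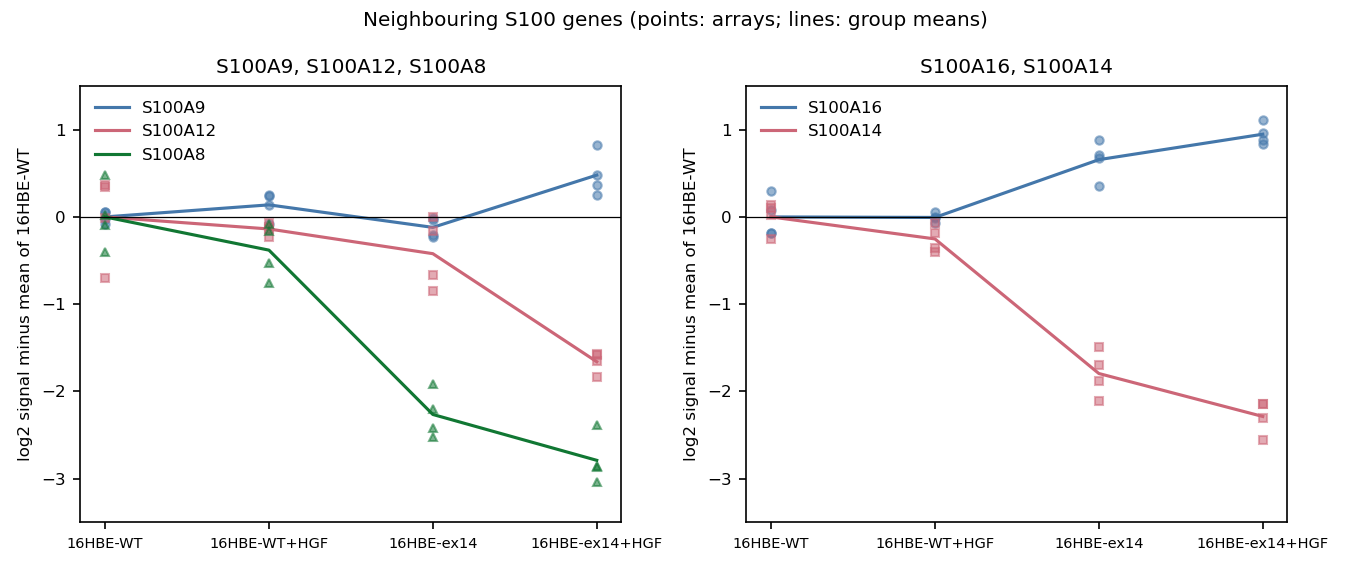
Neighbouring S100 genes on chromosome 1, as log2 signal minus the mean of 16HBE-WT, for the 4 groups on the x axis. Points are arrays and lines join group means; S100A8 and S100A14 drop between the genotypes while S100A16, beside S100A14, is higher and S100A9 keeps near its 16HBE-WT level in 16HBE-ex14; S100A12 drops in 16HBE-ex14+HGF.

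Of the 11 other S100 genes, 6 were bright enough to test, and S100A7A, S100A7L2, S100B, S100G and S100Z were above background on no array. Besides S100A12, S100A7 (psoriasin, an antimicrobial S100 protein of squamous epithelia) was lower in the clone with HGF (log2 difference -0.70, SE 0.16, adjusted p = 0.00532), but not past the fold limit with normexp correction (-0.37). S100A1, S100A3, S100A5 and S100A13 were called in none of the comparisons. In all, 0 of 6 were called between the genotypes without HGF (9.43% of all probes; median difference -0.33) and 2, both lower, with HGF (10.8%; median -0.28). For HGF, 1 of 6 was called lower in 16HBE-ex14 (1.99%; median -0.02) and 0 in 16HBE-WT (0%; median -0.04).

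In the neighbouring epidermal differentiation complex, 2 of 10 tested genes were called between the genotypes without HGF (9.43% of all probes), 2 with HGF (10.8%), 1 for HGF in 16HBE-ex14 (1.99%) and 0 in 16HBE-WT. The list has 15 genes, and LOR, FLG2, HRNR, RPTN and CRNN were above background on no array. SPRR1B, a cornified envelope precursor, was higher in the clone by 0.83 without HGF (adjusted p = 0.0252) and 1.01 with HGF (adjusted p = 0.00742), and SPRR3 by 1.16 with HGF (adjusted p = 0.0329). SPRR2A was lower in the clone without HGF (log2 difference -0.88, adjusted p = 0.00805) and rose with HGF in the clone by 0.99 (adjusted p = 0.0175). Its second probe was called for neither, at -0.70 (adjusted p = 0.271) and 0.35 (adjusted p = 0.774). These probes were dim too, and some of their calls rested on single arrays or settings. The SPRR3 difference was 0.70 without 16HBE-WT+HGF replicate 3, which was not above background, and its call was lost without replicate 1, 2 or 4 of 16HBE-ex14+HGF (adjusted p up to 0.0835). The SPRR1B call without HGF was lost without 16HBE-WT replicate 1 or replicate 1, 2 or 3 of 16HBE-ex14 (0.66 to 0.82, adjusted p = 0.0509 to 0.0836). The SPRR2A call for HGF was lost without 16HBE-ex14+HGF replicate 2 or replicate 2 or 4 of 16HBE-ex14 (0.80 to 0.98, adjusted p = 0.0525 to 0.0602), and under array median scaling, spike-in scaling and the mean of its probes (adjusted p = 0.074, 0.0523 and 0.125). With only the compared groups in the fit, SPRR3, SPRR1B without HGF and SPRR2A for HGF were not called (adjusted p = 0.102, 0.0711 and 0.114). Without a filter on dim probes, SPRR1B without HGF was not called either. With normexp correction, whose offset narrows differences of such dim spots, none of these 5 differences was called. They were 0.12 and 0.23 for SPRR1B, 0.28 for SPRR3, and -0.41 and 0.34 for SPRR2A. The loss of these calls cannot be told apart from that offset. Over the 10 genes the median difference was 0.01 between the genotypes without HGF and 0.14 with it.

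**Figure D4:**
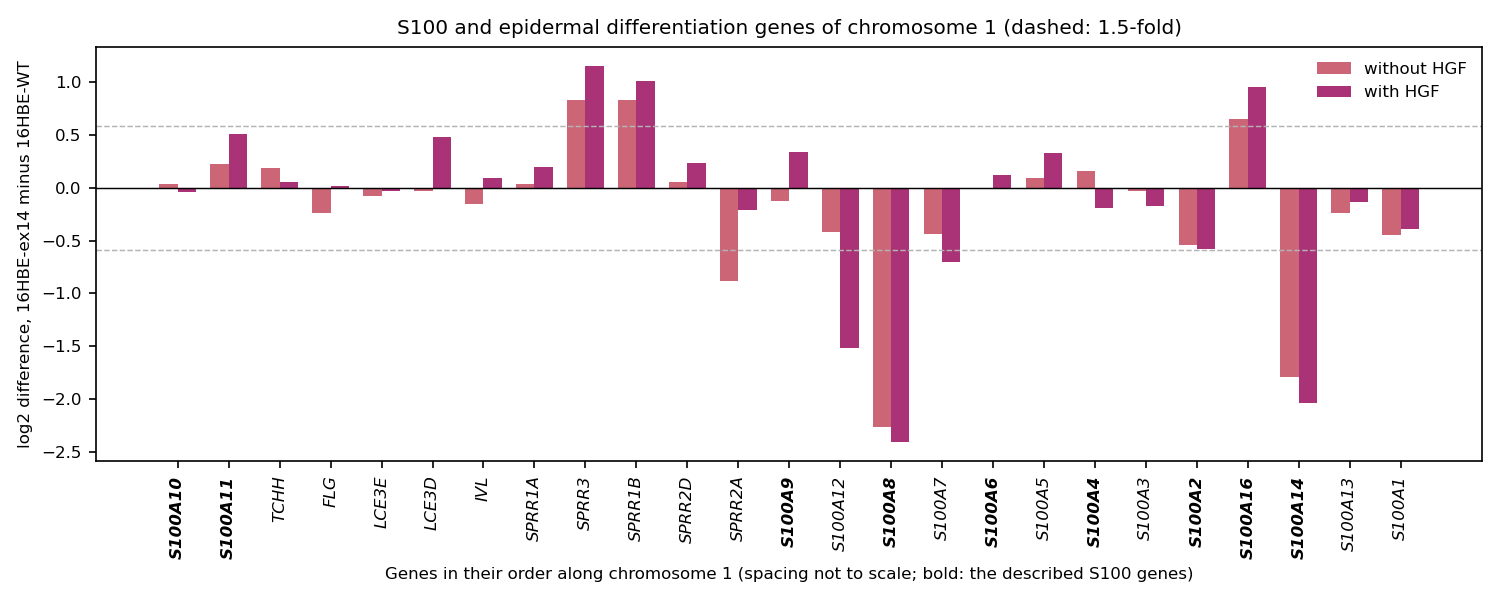
Log2 differences between 16HBE-ex14 and 16HBE-WT, without and with HGF, for the tested S100 and epidermal differentiation genes in their order along chromosome 1. Bars start at 0, dashed lines mark 1.5-fold, and bold names are the members; bars of opposite sign stand beside each other at S100A16 and S100A14.

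Among 15 genes for S100 partners and receptors, 14 were tested and CD36 was above background on no array. PLAT, the tissue plasminogen activator that S100A10 binds, was lower in the clone without HGF (log2 difference -1.98, SE 0.15, adjusted p = 1.23e-06) and with it (-1.63, adjusted p = 6.45e-06). ANXA6, a calcium-dependent membrane binder, was lower without HGF (log2 difference -0.70, adjusted p = 0.000906), and under the fold limit with normexp correction (-0.46) and array median scaling (-0.56). ANXA11, another annexin, was higher in the clone on its brightest probe by 0.45 without HGF (adjusted p = 0.00188) and 0.50 with HGF (adjusted p = 0.000693), under the fold limit. Its other probes were past the limit without HGF (0.93 and 0.60, adjusted p = 0.00279 and 0.027), and 1 of them with HGF (0.61, adjusted p = 0.0216, against 0.54, adjusted p = 0.0537). The receptors AGER and TLR4, the S100A10 partner ANXA2, the S100A11 partner ANXA1, the S100A4 partner MYH9 and the S100P partners EZR and IQGAP1 were called in no comparison. TLR4 was above background on only 7 arrays. Though not called, EZR read 7.17 to 7.27 in 16HBE-WT+HGF and 6.56 to 6.80 in 16HBE-ex14+HGF, without overlap (23.9% of probes). ANXA1 read 6.32 to 6.76 in 16HBE-WT and 6.79 to 7.11 in 16HBE-ex14, also without overlap (21.3%). Counted by the brightest probe, 0 were higher and 2 lower of 14 without HGF (9.43% of all probes; median difference 0.03), 0 and 1 with HGF (10.8%; median 0.14), and 0 for HGF in either genotype.

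S100A8, S100A9 and S100A12 are also made by myeloid cells, so markers of these were read on the same arrays. PTPRC, CD14, ITGAM and CSF3R were above background on all arrays, MPO on 1, and LYZ was not analysed here. Their summed signal, in multiples of the array's 75th percentile, was 1.18 to 1.66 in 16HBE-WT, 1.02 to 1.6 in 16HBE-WT+HGF, 1.04 to 1.7 in 16HBE-ex14 and 1.09 to 1.73 in 16HBE-ex14+HGF, ranges that overlap. That of the epithelial markers, read by other probes, was 1530 to 2050, and sums of different lists are not set against each other. For fibroblasts, which carry S100A4, COL1A2, COL3A1 and DCN were above background on no array, LUM on the 8 arrays of the unedited cells, and COL1A1 and PDGFRB on all. Their summed signal was 0.553 to 1.05 in 16HBE-WT, 0.568 to 0.809 in 16HBE-WT+HGF, 0.327 to 0.511 in 16HBE-ex14 and 0.404 to 0.428 in 16HBE-ex14+HGF, lower in the clone without overlap. The sum includes the genes above background on no array. Of single tested probes, 21.3% did not overlap between the genotypes without HGF and 23.9% with HGF. LUM, a dim probe, passed the filter for testing only through the arrays of the unedited cells, so no call is read from it. Its log2 difference, clone minus unedited cells, was -3.66 without HGF and -3.48 with HGF. With normexp correction, whose offset narrows differences of dim spots, these were -0.83 and -0.69. Of the endothelial markers, PECAM1 and KDR were above background on no array, VWF and CDH5 on all, and the sum was 0.272 to 0.615. Each marker was read on its brightest probe. Of the 5 PTPRC, 3 VWF and 2 PDGFRB probes, only 2, 1 and 1 passed the filter for testing. The cultures read here were of 1 epithelial line, and the paper describes no other cells in them. What these marker signals come from was not tested.

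The genes most like S100A8 were found by the root mean square difference over the 16 arrays, after centring each gene, among 26367 gene names. They were FAM49A (0.24 log2 units), S100A14 (0.32), MYO7B (0.33), LRIG1 (0.33) and MOXD1 (0.35). S100A14 was thus the second nearest of all genes to S100A8, and both were selected for their wide range of group means, 2.79 and 2.29. For S100A14 the nearest included FBXO2 (0.19), MARCKS (0.20), LIMCH1 (0.22) and NFE2 (0.23). MARCKS, for one, had group means of 6.16 without and 5.96 with HGF in the unedited cells, and of 4.55 and 3.75 in the clone. These lists describe shape only and carry no test.

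The start regions of the members were read from the RefSeq windows of GRCh38.p14, where the 10 members have at least 1 window each. A TATAAA box beginning 35 to 20 bases before the start stands in a window of 4 members, S100A4, S100A8, S100A9 and S100P, and in 2.21% of the 35116 windows of all genes. Members are counted by gene, some with several windows, and the share by single window, so these values are not set against each other. They are shown as the 30 bases from 40 to 11 before the start, with the box in capitals, because both calprotectin genes hold one. The stretches lie at chr1:153545817-153545846 (S100A4, minus strand), chr1:153391084-153391113 (S100A8, minus strand), chr1:153357814-153357843 (S100A9, plus strand) and chr4:6693838-6693867 (S100P, plus strand).
S100A4: tggctggggTATAAAtaggtcagacctctg
S100A8: agcctaaccgcTATAAAaaggagctgcctc
S100A9: caggagctgccTATAAAtgccgagcctgca
S100P: atgaggctgcctTATAAAgcaccaagaggc
The box begins 29 bases before the start in S100A8 and in S100A9 alike. S100A8 has 3 annotated start windows, and the box is placed so in 1 of them.

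The 250 bases before the S100A14 start, at chr1:153616326-153616575 on the minus strand of GRCh38.p14, are shown as the region of the other gene that was lower in the clone.
S100A14: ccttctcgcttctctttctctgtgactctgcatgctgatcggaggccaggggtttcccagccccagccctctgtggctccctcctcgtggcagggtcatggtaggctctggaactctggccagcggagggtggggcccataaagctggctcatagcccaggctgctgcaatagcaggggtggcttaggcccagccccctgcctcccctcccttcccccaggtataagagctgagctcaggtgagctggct
It holds none of the 4 motifs searched on both strands, TATAAA (in 3763 of the 35116 windows), TGANTCA of the AP-1 factors (6.57%), GGGCGG (42.6%) and CCAAT (32.0%), so no letter is in capitals. TGANTCA was found in a window of S100A2, 52 bases before its start, and in that of S100A12, at 57 bases. A match is a string of letters, not a measured binding site.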

How the data were processed

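Gene expression had been measured on 16 one-colour Agilent arrays of 60-base probes, 4 per group. The authors deposited the intensity of each spot from Agilent Feature Extraction 10.7.3.1 (submitters' processing notes), a linear signal after background subtraction and without scaling between arrays; background subtraction widens log2 differences of dim spots. Flags deposited with it mark outliers and spots well above background. Of 62976 spots an array, 60901 were no controls. Spots marked as outliers were removed, log2 values were taken relative to the 75th percentile of their array, and repeated spots of a probe were averaged (R 4.3.3, limma 3.58.1). Probes well above background on at least 4 arrays were tested, 34599 of 58201. limma was fitted with 1 mean per group over 16 arrays, with 5 contrasts and Benjamini-Hochberg adjustment over all tested probes. The fit was also run on simulated data with independent noise and no slide effect, which does not test the calls given here. Probe positions are the array annotation's, on hg19; 10 of 11 accessions matched the RefSeq symbol, and that of the S100A2 probe was not in the table. The number of arrays limits the precision, and p-values measure the spread between cultures of 1 line and 1 clone. Members, gene lists and tests were chosen with earlier results of these data known; a gene is represented by its brightest tested probe, and genes of the lists are named where called. Alternatives are given in the closing section. Among them, normexp correction added an offset of 50 intensity units, which narrows log2 differences of dim spots. One gene among those most like S100A14 is not reported here.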

Additional observations from a re-analysis of the deposited data

How the results depend on the processing

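Between the genotypes, S100A8 and S100A14 stayed called and lower under each of the 12 alternatives and without any 1 array. The members called for HGF in 16HBE-ex14 were 0 with spike-in scaling, 0 with only the compared groups and 2 with no fold limit; with array median scaling 1 was called, but it was S100A4, lower, in place of S100A9. In the clone against 16HBE-WT with HGF, 5 were called with no fold limit. Leaving out 1 array gave 0 to 2 members for HGF in 16HBE-ex14 (0 on leaving out replicate 1 or 2 of 16HBE-ex14 or replicate 3 of 16HBE-ex14+HGF, and 2 on leaving out replicate 3 of 16HBE-ex14), 2 to 4 between the genotypes without HGF (2 without 16HBE-ex14 replicate 3), 3 to 5 with HGF (5 without 16HBE-ex14+HGF replicate 1), and 0 in the other comparisons.

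Array median scaling moved the median of all probes to -0.11 for HGF in 16HBE-ex14 and to 0.12 between the genotypes without HGF, from 0.06 and -0.02, and the calls there split into 176 higher and 543 lower, and 2615 higher and 1042 lower, against 363 and 324, and 1556 and 1707; with HGF the split was 2529 and 1305, against 1860 and 1879, and 1904 and 3347 with no filter on dim probes. Spike-in scaling split them 199 and 280, and 2035 and 1133. All probes called were 413, 1488 and 1816 under normexp correction for HGF in 16HBE-ex14 and the genotypes without and with HGF, against 687, 3263 and 3739, and 247 for HGF in 16HBE-ex14 with only the compared groups. Without a fold limit the genotypes gave 6346 and 7101. Leaving out 1 array gave 346 (without 16HBE-ex14 replicate 2) to 971 (without 16HBE-ex14 replicate 3) for HGF in 16HBE-ex14. For the difference of the responses, normexp correction called 4 probes, and leaving out 1 array up to 11.

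Under an alternative 12 member differences changed sign, none of them called. With normexp correction these were S100A10 between the genotypes with HGF (0.0468), S100A2 for HGF in 16HBE-ex14 (0.0039), S100P between the genotypes without HGF (-0.0255) and S100A8 for the difference of the responses (0.0917). With array median scaling they were S100A10 with HGF (0.0508) and S100A9 without HGF (0.0176) between the genotypes, and S100A11 (-0.016), S100A2 (-0.0781) and S100A6 (-0.05) for HGF in 16HBE-WT. With quantile normalization they were S100A10 (-0.0466) and S100A6 (-0.0677) without HGF, and S100A6 for HGF in 16HBE-WT (-0.0289). Leaving out 1 array turned 10. Between the genotypes S100A10 ranged from -0.0811 to 0.0054 with HGF and from -0.0156 to 0.0643 without it, S100A6 from -0.0135 to 0.0216 and S100P from -0.23 to 0.17 without HGF. For HGF in 16HBE-WT the ranges were -0.0723 to 0.0029 for S100A10, -0.0687 to 0.0921 for S100A16, -0.0511 to 0.11 for S100A2 and -0.31 to 0.10 for S100P. S100A2 ranged from -0.0513 to 0.0596 for HGF in 16HBE-ex14 and from -0.11 to 0.0458 for the difference of the responses. The cause was not tested.

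The replicate numbers only follow slide and array row, and deviations of same-numbered arrays correlated at 0.03 to 0.27 over 16 pairs. With the replicate block the members called were 1 for HGF in 16HBE-ex14, 3 without HGF and 3 with HGF, and the probes called were 740, 3458 and 3998. Signal near background limits S100A12 and the SPRR genes.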
